A study of Mus musculus with 16 samples.

Results

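Messenger RNA of 8 genes that sense or remove noradrenaline was followed in 16 RNA sequencing libraries from gonadal white fat of female C57BL/6 mice. The genes were chosen by name from the 54532 genes of the count table. They are the adrenergic receptor genes Adrb1, Adrb3, Adra2a and Adra1a, the transporter genes Slc6a2 and Slc22a3, and the monoamine oxidase genes Maoa and Maob. Each was matched to 1 row of the table. The tissue was digested with collagenase and parted into a mature adipocyte fraction and a stromal vascular fraction, and magnetic sorting then enriched adipocytes and their precursors, the preadipocytes. Neither the sorting antibodies nor the age at harvest is named in the labels.

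The early life treatment was maternal separation and early weaning (MSEW), in which pups were taken from the dam daily from postnatal day 2 to 16 and weaned on day 17. Control pups were left undisturbed and weaned on day 21. On a high-fat diet there were 4 control and 4 MSEW preadipocyte libraries and 3 control and 3 MSEW mature adipocyte libraries. On a low-fat diet there was 1 control and 1 MSEW preadipocyte library, so the fractions could be compared on the high-fat diet only. All animals were of the same strain and sex, and the labels name no transgene. Each library is a single column of counts and was treated as bulk RNA, in which fewer cells of a type cannot be told apart from less RNA per cell. Whether libraries of a group came from different animals is not in the labels; the p-values therefore reflect the spread among these libraries alone, and this spread could be technical.

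The libraries held 14182130 to 23368821 counts. Libraries 1 and 3 of the control preadipocytes on the high-fat diet were almost the same, with a coefficient of variation beyond counting noise of 0.0427, against 0.2051 to 0.5666 for the other 17 pairs within groups. They were counted as 1 sample, which leaves 3 control preadipocyte samples and 15 samples in all. The fractions carried the markers of their labels: the summed level of 8 mature adipocyte markers was 16.1 to 145 FPKM in the high-fat preadipocyte libraries and 5400 to 20900 FPKM in the adipocyte libraries. FPKM are fragment counts divided by gene length and library size, so they can be set side by side between genes. Both fractions also held markers of other cells. On the high-fat diet the summed level of 4 urothelial markers was 4.88 to 257 FPKM in control and 1.22 to 22 FPKM in MSEW preadipocyte libraries. In adipocyte libraries it was 1.53 to 88.1 FPKM in controls and 1.36 to 2.3 FPKM after MSEW. The high control values came from libraries 1 and 3 of each fraction, and their part in the MSEW comparisons was not tested. The summed level of 8 macrophage markers was 190 to 968 FPKM in the adipocyte libraries. MSEW high-fat preadipocyte libraries 3 and 4 stood apart with 962 and 1140 FPKM, against 163 to 477 FPKM in the other 6 high-fat preadipocyte libraries.

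Noradrenaline released by sympathetic nerves is the main acute signal for fat breakdown in adipocytes. Beta receptors couple to a stimulatory G protein, raise cyclic AMP and activate protein kinase A, which sets off lipolysis; in rodents the beta-3 receptor is the form typical of adipocytes. The alpha-2A receptor couples to inhibitory G proteins and opposes this, while the alpha-1A receptor signals through Gq and calcium. The signal ends when noradrenaline is taken up, either by the high-affinity noradrenaline transporter (Slc6a2) of sympathetic nerves or by low-affinity carriers such as organic cation transporter 3 (Slc22a3), and is broken down by monoamine oxidases A and B on the outer mitochondrial membrane.

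RefSeq promoter sequences (GRCm38.p6) were found for 4 of the 8 genes: Adrb1, Adra2a, Slc22a3 and Maoa. The 250 bases before the start site are shown for a transporter gene that was far higher in adipocytes, an oxidase gene that was moderately higher there, and a receptor gene that was lower. They are written 5′ to 3′ on the gene's strand, and capitals mark the motif matches. The windows are chr17:12507705-12507954 on the minus strand for Slc22a3, chrX:16619448-16619697 on the plus strand for Maoa and chr19:54045009-54045258 on the plus strand for Adra2a.
Slc22a3: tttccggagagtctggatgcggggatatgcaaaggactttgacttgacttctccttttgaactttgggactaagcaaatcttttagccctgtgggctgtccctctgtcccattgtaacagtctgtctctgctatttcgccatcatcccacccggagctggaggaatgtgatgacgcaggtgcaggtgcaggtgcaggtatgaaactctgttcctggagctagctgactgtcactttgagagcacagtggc
Maoa: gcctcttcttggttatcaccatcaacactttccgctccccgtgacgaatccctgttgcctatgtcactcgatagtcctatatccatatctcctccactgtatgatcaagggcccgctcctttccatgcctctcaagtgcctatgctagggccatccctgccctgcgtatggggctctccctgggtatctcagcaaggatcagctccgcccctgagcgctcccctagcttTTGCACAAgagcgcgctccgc
Adra2a: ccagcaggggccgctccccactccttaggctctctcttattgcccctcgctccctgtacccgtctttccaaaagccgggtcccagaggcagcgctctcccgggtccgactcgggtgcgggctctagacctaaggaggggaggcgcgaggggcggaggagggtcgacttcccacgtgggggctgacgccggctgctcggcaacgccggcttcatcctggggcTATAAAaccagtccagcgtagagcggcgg
Both strands were searched for 5 motifs: the cyclic AMP response element TGACGTCA, the C/EBP pattern TTNNGCAA, the EBF core CCCNNGGG, the nuclear receptor half-site AGGTCA and the TATA box TATAAA. None of the 5 was present in the Slc22a3 window. The Maoa window held 1 match to the C/EBP pattern, on the minus strand, and the Adra2a window held a TATA box 29 bases before the RefSeq start site. The Adrb1 window, at chr19:56721867-56722116, held the EBF core, which reads alike on both strands, at 3 positions, 2 of which overlap. For these last 2 genes the authors' coordinates start elsewhere. They start Adra2a at 54045182, inside its window, and Adrb1 at 56722372, past the end of its window. Of the 32851 promoter windows in the table, 1.55% held the cyclic AMP response element, 9.56% the C/EBP pattern, 11.8% the EBF core, 14% the half-site and 12.4% the TATA box. The cyclic AMP response element was therefore in none of the 4 windows. The share of G and C bases was 51.2% for Slc22a3, 56.8% for Maoa, 67.6% for Adra2a and 74% for Adrb1, against a median of 52.4% over all windows. These matches describe the sequence only.

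In the comparison of mature adipocytes with preadipocytes on the high-fat diet, 5 of the 8 genes were higher in adipocytes, 2 were lower and 1 was not called. This comparison was broad: edgeR's quasi-likelihood test called 26.4% of the 16679 genes tested as higher and 35% as lower in adipocytes at a Benjamini-Hochberg adjusted p under 0.05. All 8 genes passed the filter on low counts. The median log2 fold change was 1.70 over the 8 genes and -0.25 over all genes tested. Adrb3, Slc22a3, Adra1a, Maoa and Maob were higher in adipocytes, and Slc6a2 and Adra2a were lower. For these 7 genes no adipocyte sample overlapped any high-fat preadipocyte sample. The share of all genes that separate in this way is not given, and 61.3% of all genes tested were called in either direction. Blood vessel markers moved with the genes that were higher. Of 6 endothelial markers 4 were higher in adipocytes and 1 lower, with summed levels of 171 to 655 FPKM against 39.4 to 191 FPKM in high-fat preadipocytes. Of 6 mural cell markers 3 were higher and none lower, with sums of 160 to 460 FPKM against 19.1 to 108 FPKM. No marker of either list was at 0 in any library. The part of these cells in the 5 higher genes was not tested.

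**Figure D1:**
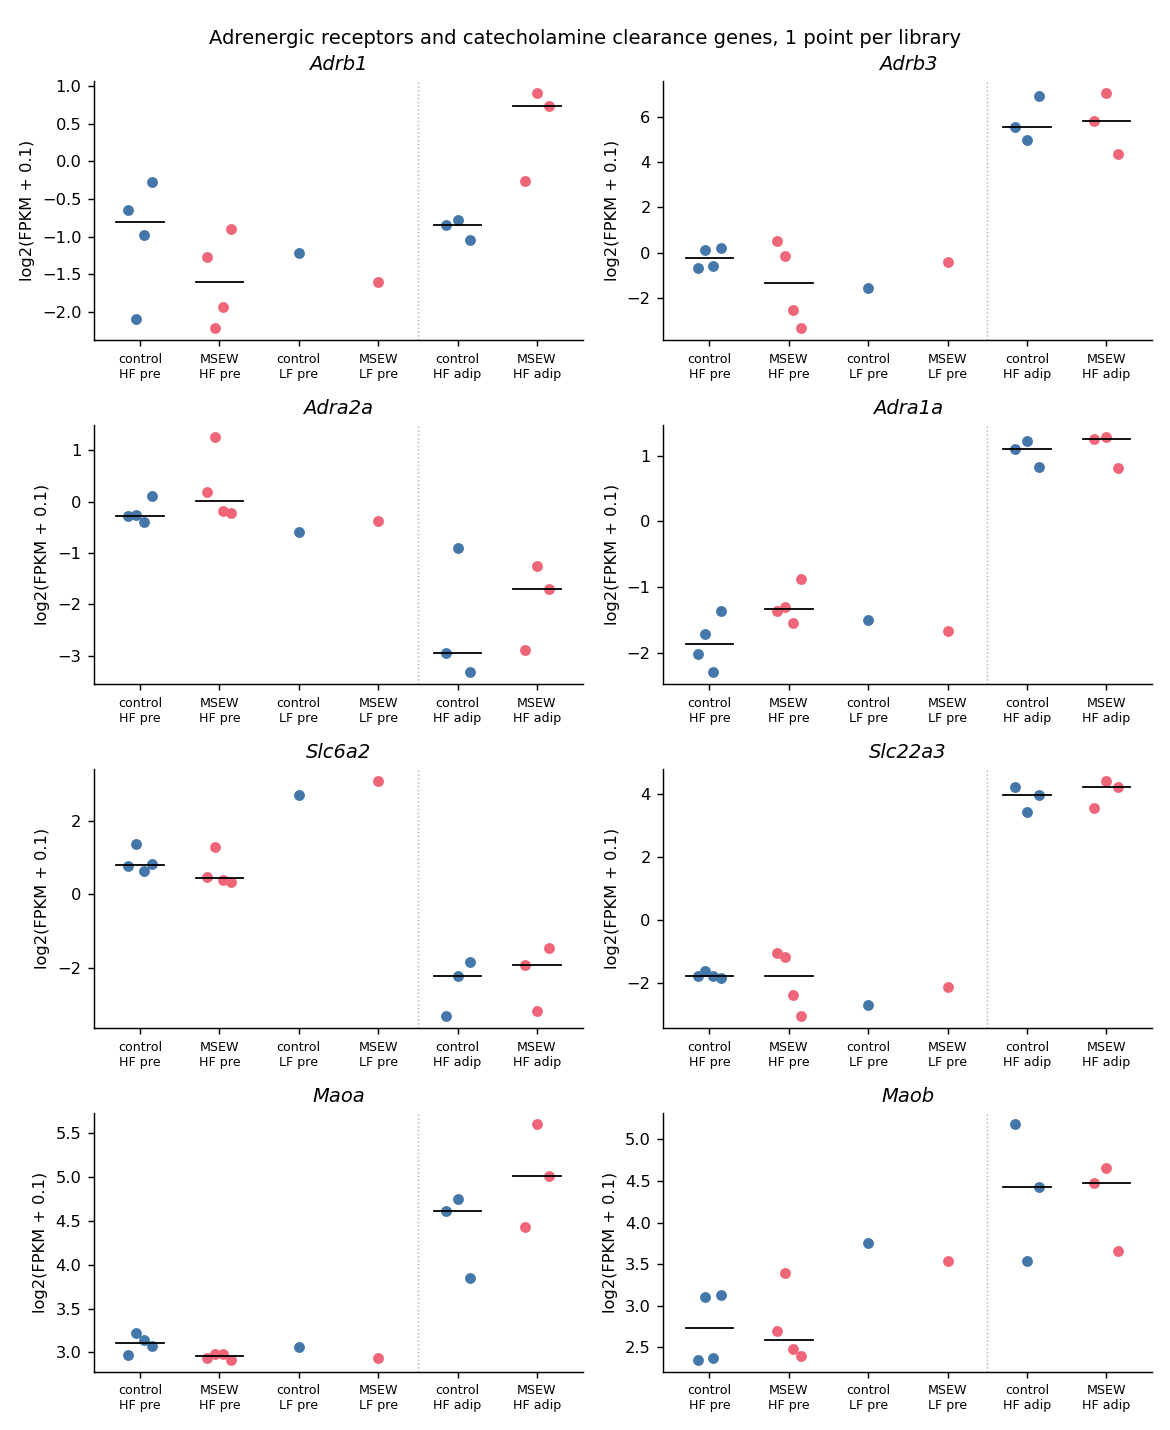
Level of each of the 8 genes in all 16 libraries, as log2(FPKM + 0.1), with 1 point per library (blue, control; red, MSEW) and black lines at the median of each group of more than 1 library; HF and LF are the high-fat and low-fat diets, and each panel has its own scale. Adrb3, Slc22a3, Adra1a, Maoa and Maob sit higher in every adipocyte library than in every high-fat preadipocyte library, Slc6a2 and Adra2a sit lower, and the 2 low-fat libraries hold the 2 highest Slc6a2 levels.

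Adrb3, which encodes the beta-3 receptor (ENSMUSG00000031489, GRCm38 chromosome 8, 27225776 to 27250616, minus strand), had the largest difference of the 8. Its level was 47, 31.4 and 121 FPKM in control adipocyte libraries 1 to 3 and 56.6, 132 and 20.4 FPKM in the MSEW adipocyte libraries. It was 0.539, 0.994, 0.569 and 1.06 FPKM in the control preadipocyte libraries and 1.32, 0.819, 0.0748 and 0 FPKM in the MSEW preadipocyte libraries. The adipocyte libraries all lay above the preadipocyte libraries, and both sets were widely spread. The difference was 99.6-fold, a log2 fold change of 6.64 (SE 0.77, n = 6 and 7; edgeR adjusted p = 4.85e-06), with a 95% interval of 31.9-fold to 311-fold. The value of 0 in MSEW preadipocyte library 4 rests on no counts, which allows up to 0.0403 FPKM (3 counts). The antisense gene Gm45470 lies within Adrb3 on the other strand. It held 48 to 108 counts in the adipocyte libraries, against 1491 to 6971 for Adrb3. In the high-fat preadipocyte libraries it held 0 to 20 counts against 0 to 103, and in control library 3 it reached 20 counts against 47. Whether the authors' counting used strand is not stated in the labels.

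Slc22a3, the gene for organic cation transporter 3 (ENSMUSG00000023828, chromosome 17, 12418960 to 12507704, minus strand), was close behind. Its level was 18.3, 10.6 and 15.5 FPKM in the control adipocyte libraries and 11.7, 21.3 and 18.4 FPKM in the MSEW ones. In preadipocytes it was 0.193, 0.223, 0.19 and 0.176 FPKM in the controls and 0.385, 0.338, 0.0895 and 0.0201 FPKM after MSEW. The adipocyte libraries spanned 10.6 to 21.3 FPKM, a narrower set than for Adrb3, which spanned 20.4 to 132 FPKM in the same libraries. The difference between fractions was 79-fold (log2 6.30, SE 0.44, n = 6 and 7; edgeR adjusted p = 5.12e-08; 95% interval 41.4-fold to 151-fold). The preadipocyte values rest on only 2 to 40 counts per library and the adipocyte values on 807 to 1803.

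Adra1a, the alpha-1A receptor gene (ENSMUSG00000045875, chromosome 14, 66635251 to 66771168, plus strand), was low in both fractions but separated them cleanly. It ranged from 1.65 to 2.34 FPKM over the 6 adipocyte libraries and from 0.103 to 0.441 FPKM over the 8 high-fat preadipocyte libraries. It was 7.95-fold higher in adipocytes (log2 2.99, SE 0.25; edgeR adjusted p = 2.6e-07).

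The monoamine oxidase genes were expressed in both fractions and higher in adipocytes. They lie tail to tail on the X chromosome, Maoa (ENSMUSG00000025037) at 16619698 to 16687818 on the plus strand and Maob (ENSMUSG00000040147) at 16709282 to 16817366 on the minus strand, 21464 bases apart. Maoa was 24.3, 26.8 and 14.3 FPKM in control adipocytes and 21.4, 48.5 and 32.1 FPKM in MSEW adipocytes, against 7.43 to 9.19 FPKM over the 8 high-fat preadipocyte libraries. It was 3.47-fold higher (log2 1.80, SE 0.23; edgeR adjusted p = 1.12e-05). Maob ranged from 11.5 to 36.2 FPKM in adipocytes and from 4.99 to 10.4 FPKM in high-fat preadipocytes, and was 3.04-fold higher (log2 1.60, SE 0.26; edgeR adjusted p = 9.18e-05). The share of Maoa in the summed Maoa and Maob level had a median of 57.5% in adipocytes (39.9% to 72%) and 54.3% in high-fat preadipocytes (42.8% to 62.1%), so the ranges overlapped. In adipocytes the 2 genes did not move together from library to library. Control library 1 had the highest Maob level of the 6, and MSEW library 2 had the highest Maoa level.

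Slc6a2, the noradrenaline transporter gene (ENSMUSG00000055368, chromosome 8, 92960079 to 93001667, plus strand), ran the other way. It was 1.61, 2.5, 1.45 and 1.67 FPKM in control preadipocytes and 1.28, 2.34, 1.22 and 1.16 FPKM in MSEW preadipocytes. In adipocytes it was 0, 0.112 and 0.179 FPKM in controls and 0.164, 0.0102 and 0.264 FPKM after MSEW. The highest adipocyte library lay well below the lowest preadipocyte library. Slc6a2 was 13.3-fold lower in adipocytes (log2 -3.74, SE 0.65; edgeR adjusted p = 1.73e-04). The adipocyte values rest on 0 to 36 counts per library and the preadipocyte values on 152 to 328. The value of 0, in control adipocyte library 1, allows up to 0.0272 FPKM (3 counts). Slc6a2 and Slc22a3 thus had opposite patterns: Slc6a2 made up 76.9% to 98.3% of their summed FPKM in the high-fat preadipocyte samples and 0% to 1.41% in the adipocyte samples.

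Slc6a2 is best known from sympathetic neurons, so neuron markers were read beside it. Of 8 neuron markers 6 were tested, 3 were lower in adipocytes (Tubb3, Uchl1 and Prph) and none was higher. That is 50% lower, beside 35% of all genes tested. The highest count in any preadipocyte and any adipocyte library was 4 and 37 for Snap25 and 40 and 54 for Npy. The summed level of the 8 neuron markers was 10.8 to 36.9 FPKM in the high-fat preadipocyte libraries and 6.89 to 16 FPKM in the adipocyte libraries. Phox2a, a transcription factor gene of sympathetic neurons, had at most 6 counts in any preadipocyte library and at most 5 in any adipocyte library. Th and Dbh, which encode enzymes of noradrenaline synthesis, did not pass the filter on low counts. Th was at 0 FPKM in every sample, and Dbh reached at most 0.142 FPKM. All 8 adipocyte progenitor markers were lower in adipocytes as well, with summed levels of 1920 to 3640 FPKM against 175 to 396 FPKM. Progenitor markers were not alone in this. All 6 mesothelial markers, all 4 B cell markers and 3 of 5 T and NK cell markers were also lower, and none was higher. The mesothelial sums were 33.3 to 417 FPKM in high-fat preadipocytes and 10.2 to 60.3 FPKM in adipocytes. The part of other cells in the Slc6a2 signal was not tested.

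Adra2a, the alpha-2A receptor gene (ENSMUSG00000033717, chromosome 19, 54045182 to 54048982, plus strand), was also lower in adipocytes. In preadipocytes it was 0.728, 0.732, 0.656 and 0.986 FPKM in controls and 1.04, 2.31, 0.784 and 0.763 FPKM after MSEW. In adipocytes it was 0.03, 0.436 and 0 FPKM in controls and 0.0354, 0.321 and 0.206 FPKM after MSEW. The fractions did not overlap, but the adipocyte libraries held only 0 to 33 counts each. The value of 0, in control adipocyte library 3, allows up to 0.0684 FPKM (3 counts). Adra2a was 5.52-fold lower (log2 -2.46, SE 0.71; edgeR adjusted p = 0.00778). The call was lost in the control libraries alone, where the log2 fold change was -2.21 (edgeR adjusted p = 0.185) and 18.2% of genes were called as lower.

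Adrb1, which encodes the beta-1 receptor (ENSMUSG00000035283, chromosome 19, 56722372 to 56724862, plus strand), was the 1 gene not called between fractions. It was 0.54, 0.135, 0.41 and 0.725 FPKM in control preadipocytes and 0.314, 0.115, 0.162 and 0.437 FPKM in MSEW preadipocytes. In adipocytes it was 0.458, 0.484 and 0.383 FPKM in controls and 0.738, 1.78 and 1.56 FPKM after MSEW. Control adipocytes lay inside the preadipocyte range and MSEW adipocytes lay above it. Over all libraries the log2 fold change was 1.31 (SE 0.59; edgeR adjusted p = 0.0662; 95% interval 1.04-fold to 5.93-fold).

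The Adrb1 result depended on which libraries and test were used. In the MSEW libraries alone its log2 fold change was 2.52 (edgeR adjusted p = 0.00755), in a comparison where 24.7% of genes were called as higher, and in the control libraries alone it was 0.03 (edgeR adjusted p = 0.98). DESeq2 called Adrb1 over all libraries (adjusted p = 0.026), where it called 27.3% of genes as higher. Leaving out control preadipocyte library 4, control adipocyte library 1 or control adipocyte library 3 gave log2 fold changes of 1.60, 1.59 and 1.62 and adjusted p of 0.0256, 0.0401 and 0.0303 in edgeR. Adrb1 rests on 6 to 84 counts per high-fat library.

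**Figure D2:**
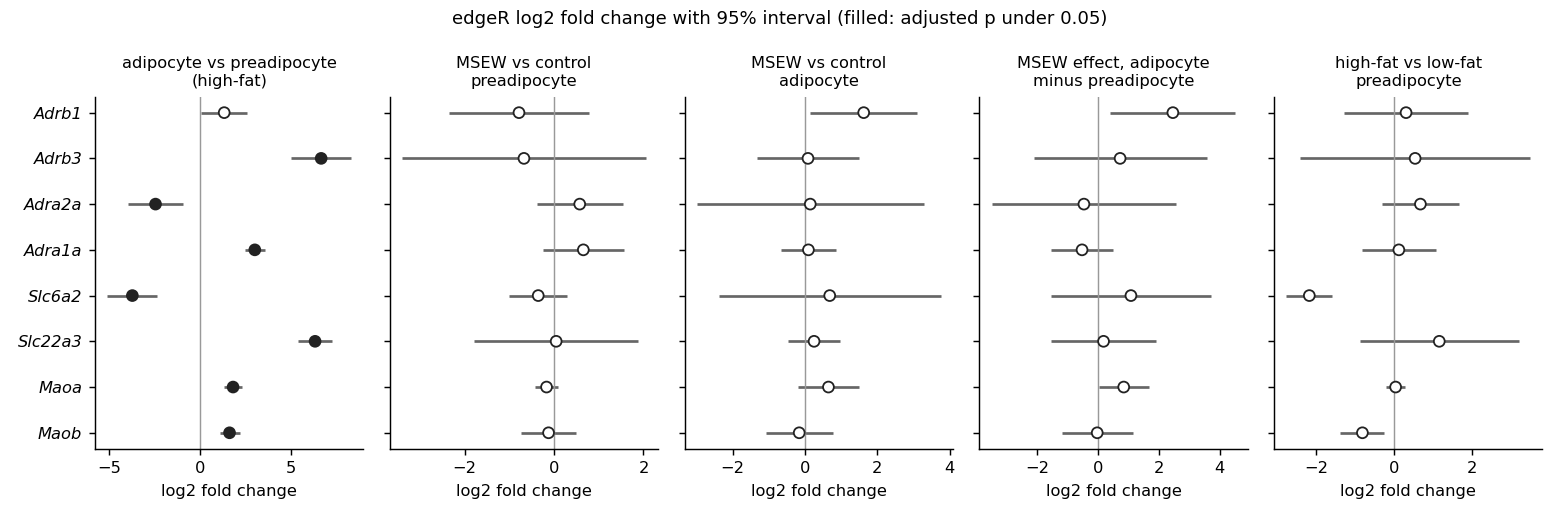
Log2 fold change of each gene in 5 comparisons (edgeR; points are estimates, lines are 95% intervals, filled points have an adjusted p under 0.05), with a separate horizontal scale in each panel. The 7 filled points are all in the comparison of adipocytes with preadipocytes, and none of the 8 genes was called in the other 4 comparisons.

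Set in order of their median level, the 8 genes ranked differently in each fraction. In the high-fat preadipocyte samples the order was Maoa (7.8 FPKM), Maob (6.36 FPKM), Slc6a2 (1.53 FPKM), Adrb3 (0.819 FPKM), Adra2a (0.784 FPKM), Adrb1 (0.314 FPKM), Adra1a (0.288 FPKM) and Slc22a3 (0.192 FPKM). In adipocytes it was Adrb3 (51.8 FPKM), Maoa (25.5 FPKM), Maob (21.8 FPKM), Slc22a3 (16.9 FPKM), Adra1a (2.15 FPKM), Adrb1 (0.611 FPKM), Slc6a2 (0.138 FPKM) and Adra2a (0.121 FPKM). Neighbours in these orders overlapped in range, with 3 exceptions: Maob over Slc6a2 in preadipocytes, and Slc22a3 over Adra1a and Adrb1 over Slc6a2 in adipocytes. Adra1a and Adrb1 in adipocytes overlapped only through Adrb1 in MSEW library 2, at 1.78 FPKM.

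Adrenergic receptor mRNA was also summed within each sample over 8 receptor genes, namely Adrb1, Adrb3, Adra1a, Adra1b, Adra1d, Adra2a, Adra2b and Adra2c. The sum was 3.34 to 7.36 FPKM in the high-fat preadipocyte samples and 28.2 to 141 FPKM in the adipocyte samples, and its make-up differed as well. In adipocytes Adrb3 held 72.2% to 93.6% of the sum, with a median of 85.3%. In high-fat preadipocytes Adrb3 held 0% to 20.9%, and the alpha-1B receptor gene Adra1b held the largest share in all 7 samples, with a median of 40.2% (30.1% to 59%). Adra2a had the next highest median there, 16.4%, against 0.141% in adipocytes. MSEW preadipocyte library 2 stood out, with Adra2a at 31.3% of its sum. These are shares of mRNA among the 8 genes summed and say nothing of receptor protein.

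**Figure D3:**
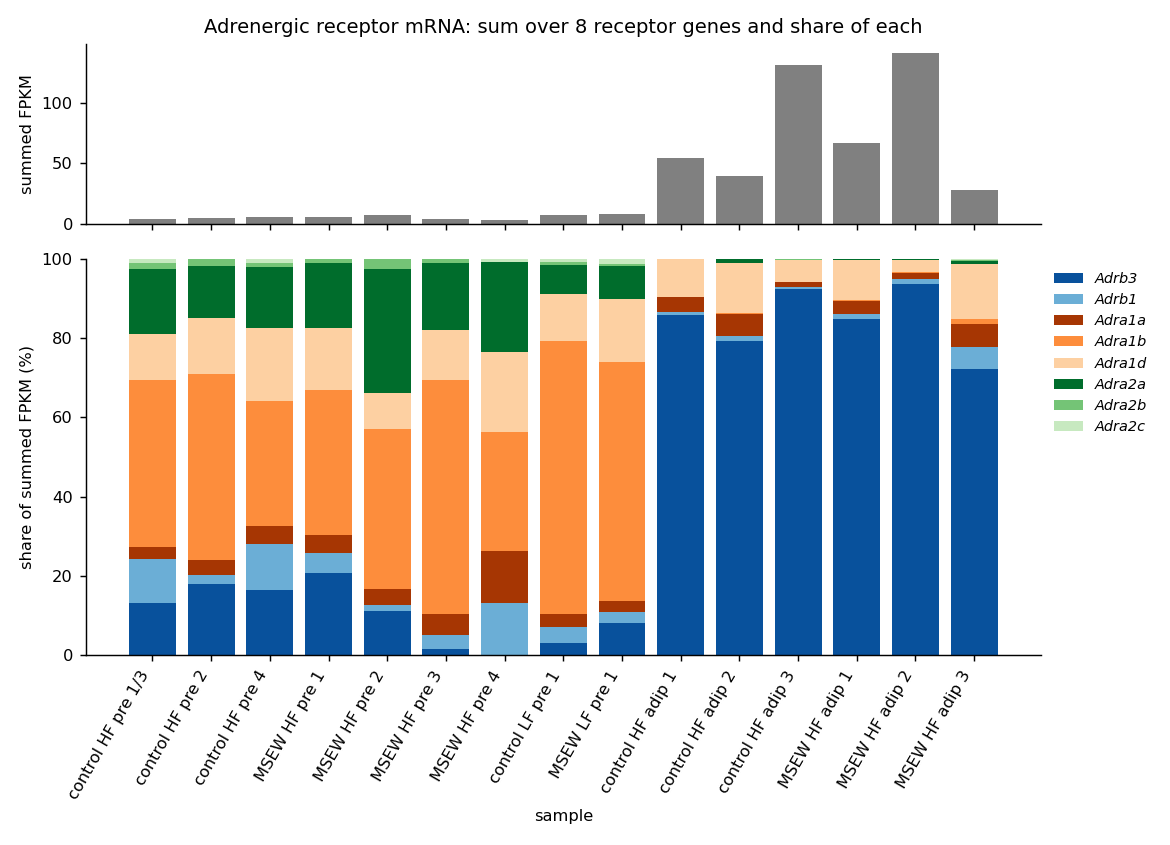
Upper panel, summed FPKM of the 8 adrenergic receptor genes named in the legend in each of the 15 samples; lower panel, the share of each gene in that sum in percent (blues, beta; oranges, alpha-1; greens, alpha-2). Adrb3 holds 72.2% to 93.6% in the 6 adipocyte samples and at most 20.9% in the 7 high-fat preadipocyte samples, where Adra1b holds the largest share.

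The other genes of the pathway were taken from lists of receptors, uptake and breakdown, synthesis, and the signalling steps after the receptor. Of these 60 genes, 52 were tested between fractions, 19 were higher in adipocytes and 14 lower, with a median log2 fold change of -0.07. That is 36.5% higher and 26.9% lower, beside 26.4% and 35% of all genes tested, whose median was -0.25. Among the other receptors 1 of the 2 tested was higher, Adra1d of the alpha-1D receptor (log2 2.83, SE 0.28), and 1 was lower, Adra1b (log2 -4.12, SE 0.56). The alpha-1 genes therefore split, with Adra1a and Adra1d higher in adipocytes and Adra1b lower.

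Uptake and breakdown genes were mostly higher in adipocytes, 7 of 9 tested (77.8%, beside 26.4% of all genes), with 1 lower. The named genes were Slc22a2 of organic cation transporter 2 (log2 5.04, SE 0.69), the largest rise of the list, and Slc6a4 of the serotonin transporter (log2 -4.15, SE 0.85), its fall. Of the synthesis and storage genes 3 of 6 were tested and 2 were lower: Ddc of aromatic amino acid decarboxylase (log2 -3.06, SE 0.84) and Slc18a2 of the vesicular monoamine transporter (log2 -2.34, SE 0.41).

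Of the 38 tested genes of the steps after the receptor, 11 were higher (28.9%) and 10 lower (26.3%). These shares were near the 26.4% and 35% of all genes, so the counts below describe single genes and set the steps apart in no direction. Among 6 G protein alpha subunit genes 3 were higher and 2 lower, led by the inhibitory subunit gene Gnai1 (log2 5.03, SE 0.29) and by Gna11 of the Gq family (log2 1.04, SE 0.18). Among 8 adenylyl cyclases, which make cyclic AMP, 2 were higher and 1 lower, with Adcy5 at log2 2.19 (SE 0.30) and Adcy2 at log2 -4.10 (SE 0.55). Of 6 protein kinase A subunit genes 2 were higher and 2 lower, and the higher ones were the regulatory subunit gene Prkar2b (log2 4.83, SE 0.28) and the catalytic subunit gene Prkaca (log2 2.42, SE 0.18).

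Among 10 phosphodiesterase genes, whose enzymes break down cyclic AMP, 3 were higher and 3 lower, and the largest differences were falls in Pde3a (log2 -3.75, SE 0.42) and Pde4c (log2 -3.56, SE 0.58). Of 8 genes of receptor desensitisation 1 was higher and 2 were lower, namely the receptor kinase genes Grk4 (log2 -1.74, SE 0.37) and Grk3 (log2 -1.05, SE 0.34). None of the 60 genes was called by edgeR in any of the 4 other comparisons, where 1 to 7 of them had an unadjusted p under 0.05. DESeq2 called 3 of them for diet, named here after their values were seen: Adra1b was lower on the high-fat diet (log2 -1.21, SE 0.36; adjusted p = 0.0396), and Prkar2b (log2 0.83, SE 0.16; adjusted p = 2.24e-04) and Grk5 (log2 0.38, SE 0.11; adjusted p = 0.025) were higher. DESeq2 called 1.51% of all genes as higher on the high-fat diet.

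**Figure D4:**
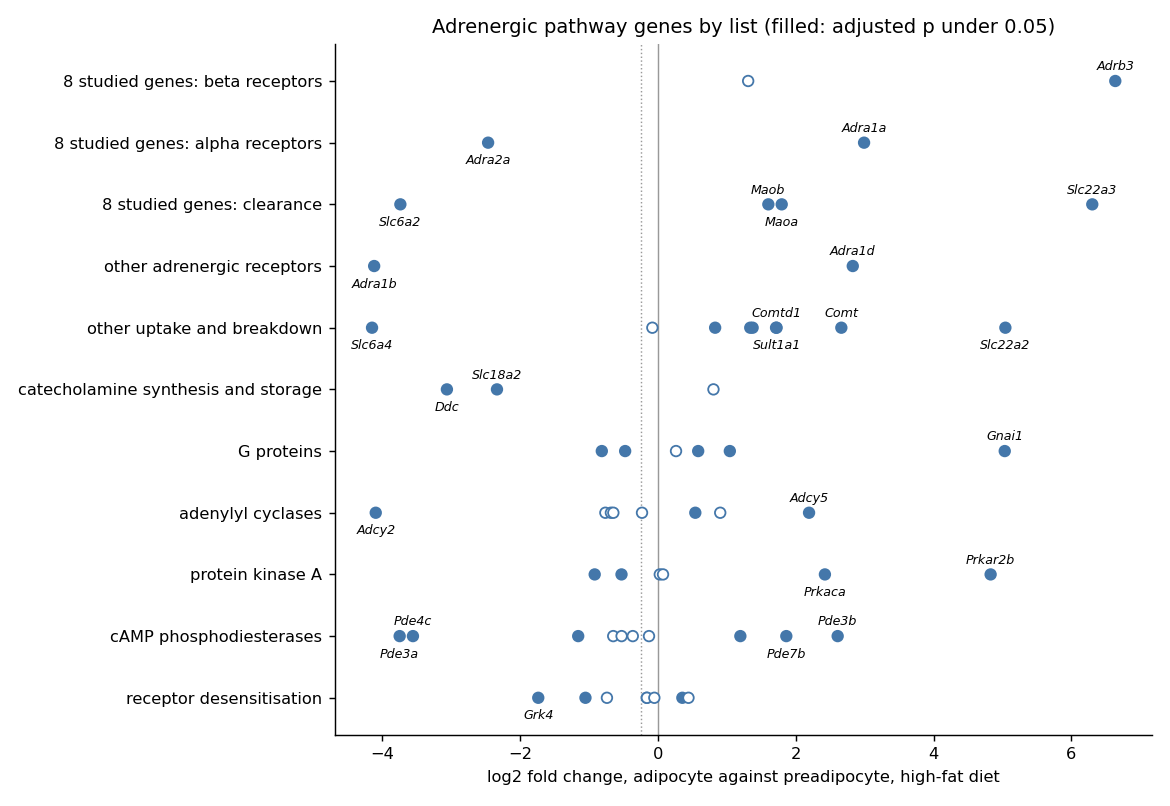
Log2 fold change of adipocytes against preadipocytes on the high-fat diet for the 8 studied genes and the 52 tested genes of the other pathway lists (1 point per gene; filled, edgeR adjusted p under 0.05), with the median of all genes at -0.25 as a dotted line. Uptake and breakdown genes lie mostly to the right, while the receptors and the later signalling steps hold genes on both sides.

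For each of the 8 genes, the 3 genes most like it in pattern were found by the Pearson correlation of log2(FPKM + 0.1) over the 15 samples, among 15184 genes with a mean of at least 1 FPKM in some group. All samples share the large difference between fractions, so these values describe mainly that difference. Slc22a3 was most like Acvr1c (r = 0.995), Dgat2 (r = 0.994), which encodes an enzyme of triglyceride synthesis, and Mrap (r = 0.993). Adrb3 was most like mt-Nd4 (r = 0.989), a mitochondrial gene, Cfd (r = 0.988), which encodes adipsin and is in the adipocyte marker list, and Adig (r = 0.988). Adra1a was most like Slc36a2 (r = 0.992), Tmem135 (r = 0.987) and Rtn3 (r = 0.985). Maoa was most like Gm9696 (r = 0.991), Dlat (r = 0.984) and Etfdh (r = 0.977), the last 2 of them genes of mitochondrial fuel oxidation.

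The remaining 4 genes had lower best values. Maob was most like Dhtkd1 (r = 0.963), Ndufaf7 (r = 0.958) and Gstm6 (r = 0.955). Slc6a2 was most like Exd2 (r = 0.971), Heg1 (r = 0.971) and Zfp266 (r = 0.97), and Adra2a was most like Tbx6 (r = 0.964), 1700008B11Rik (r = 0.963) and Gm37154 (r = 0.96). Adrb1 was least matched, with Sco1 (r = 0.878), 2410022M11Rik (r = 0.862) and Pus10 (r = 0.845).

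Within the preadipocyte fraction, Adrb3 and Slc22a3 were low and uneven, and mature adipocyte markers varied with them. Their medians in high-fat preadipocytes were 1.58% and 1.13% of the adipocyte medians, against 0.381% to 1.83% for the 8 adipocyte markers. The corresponding values were 13.4% for Adra1a, 29.1% for Maob, 30.6% for Maoa and 51.3% for Adrb1, all above the marker range. Over the 9 preadipocyte samples of both diets, Slc22a3 followed the summed adipocyte markers with Pearson's r = 0.986 (exact permutation p = 5.51e-06) and Spearman's rho = 0.983 (exact permutation p = 4.96e-05). The Slc22a3 levels there rest on 2 to 40 counts per library. For Adrb3 the values were r = 0.834 (exact permutation p = 0.00693) and rho = 0.85 (exact permutation p = 0.00607). This relation was chosen after the values were seen, and 16 relations were computed, of the 8 genes with adipocyte and with macrophage markers. Adjusted over the 16, the exact permutation p was 8.82e-05 for r and 7.94e-04 for rho with Slc22a3, and 0.0554 for r and 0.0486 for rho with Adrb3. Without the 2 samples farthest from the median marker level, r was 0.962 for Slc22a3 and 0.825 for Adrb3 (n = 7). Within the 7 high-fat samples alone, Slc22a3 had r = 0.984 and rho = 1 (exact permutation p = 3.97e-04 for each, adjusted over 16 relations 0.00635). Adrb3 had r = 0.828 and rho = 0.75 there (exact permutation p = 0.0286 and 0.0663, adjusted 0.114 and 0.212), so its relation did not pass the threshold within the diet. Without the 2 farthest of these samples r was 0.976 for Slc22a3 and 0.604 for Adrb3 (n = 5). Within a treatment there were at most 5 preadipocyte samples, too few for a separate value. With the summed macrophage markers r was negative in the 7 high-fat samples. It was -0.861 for Adrb3 and -0.844 for Slc22a3 (exact permutation p = 0.0181 and 0.0196, adjusted 0.105 for each). Without the 2 farthest samples it was -0.145 and -0.431. Over both diets it was -0.653 and -0.54 (exact permutation p = 0.0592 and 0.121, adjusted 0.19 and 0.276). The part of adipocytes or macrophages in the 2 levels was not tested.

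**Figure D5:**
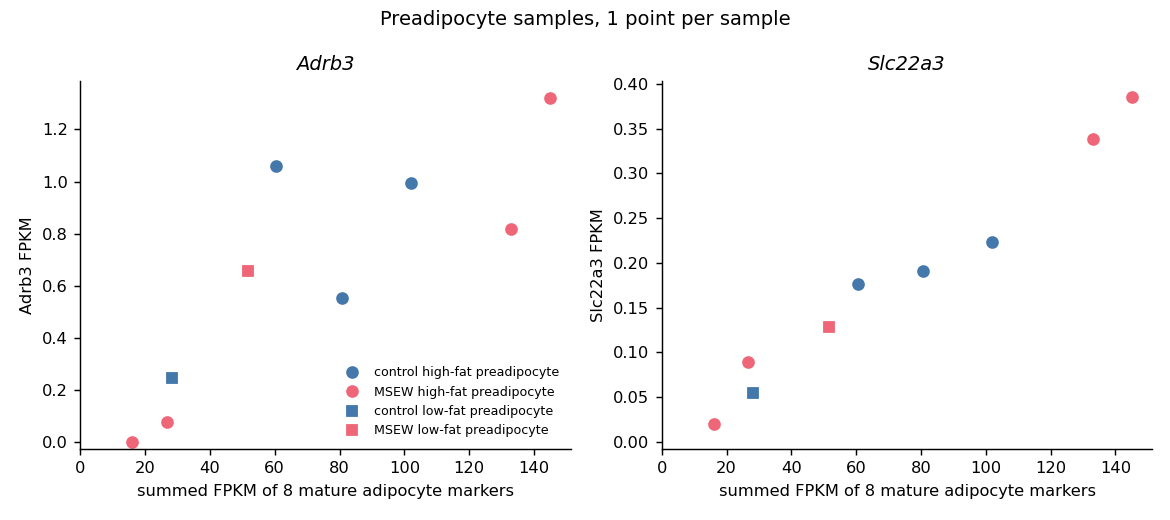
Adrb3 and Slc22a3 in the 9 preadipocyte samples (FPKM, vertical axes) against the summed FPKM of 8 mature adipocyte markers (horizontal axes; circles, high-fat; squares, low-fat; blue, control; red, MSEW). The marker sum runs from 16.1 to 145 FPKM and Slc22a3 rises with it from 0.0201 to 0.385 FPKM, while Adrb3 is more scattered.

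The other 6 genes did not show this relation at an adjusted p under 0.05 with either marker sum, over both diets or within the high-fat samples. Adra2a had r = 0.606 with the adipocyte markers (exact permutation p = 0.046, adjusted 0.184), which fell to 0.104 without the 2 farthest samples. Slc6a2 had r = -0.495 and rho = -0.783 with the macrophage markers (exact permutation p = 0.11 and 0.0172, adjusted 0.276 and 0.0919), and Maob had r = -0.713 and rho = -0.733 (exact permutation p = 0.0293 and 0.0311, adjusted 0.156 and 0.124). The part of macrophages in the Slc6a2 and Maob levels was not tested.

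The comparison of MSEW with control preadipocytes on the high-fat diet asked whether early life treatment left a difference in these genes, and none was called. edgeR called 0% of the 17129 genes tested, and 496 had an unadjusted p under 0.05, while DESeq2 called 4 and limma on log2(FPKM + 1) called none. With the replicate number as a block edgeR called 2 genes, none of them among the 8. None of the 8 genes reached an unadjusted p under 0.05. Maoa was the most tightly measured, at 7.74, 9.19, 8.72 and 8.32 FPKM in controls and 7.56, 7.78, 7.8 and 7.43 FPKM after MSEW. All 4 MSEW values lay below the controls once the near-identical control libraries were averaged, and control library 1 lay among them otherwise. The share of all genes that separate in this way between the treatments is not given. The fold of MSEW over control for Maoa had a 95% interval of 0.741 to 1.07 (log2 fold change -0.17, SE 0.11; edgeR adjusted p = 0.973).

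For the other genes the intervals in preadipocytes were wide. The 95% interval of the fold of MSEW over control was 0.596 to 1.42 for Maob, 0.501 to 1.22 for Slc6a2, 0.766 to 2.9 for Adra2a and 0.84 to 2.95 for Adra1a. It was 0.196 to 1.72 for Adrb1, 0.291 to 3.68 for Slc22a3 and 0.0947 to 4.15 for Adrb3. The latter 2 genes were lowest in MSEW libraries 3 and 4, which also had the least adipocyte marker RNA (26.6 and 16.1 FPKM) and the most macrophage marker RNA. Without those 2 libraries the log2 fold change was 0.26 for Adrb3 and 0.81 for Slc22a3, against -0.67 and 0.05 with them. That removal was not planned, and taking out the lowest MSEW values raises the fold change in any case. It therefore does not show what lies behind the estimates.

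In mature adipocytes no gene was called between MSEW and control either. edgeR called 0% of the 14485 genes tested, and 417 had an unadjusted p under 0.05, while DESeq2 called 9 and limma none. Of the 8 genes only Adrb1 had an unadjusted p under 0.05: the 3 MSEW libraries, at 0.738 to 1.78 FPKM, lay above the 3 controls, at 0.383 to 0.484 FPKM. The log2 fold change was 1.62 (SE 0.67; 95% interval 1.10-fold to 8.61-fold), and the edgeR adjusted p was 0.9996. Adrb1 held 11 to 24 counts in the control and 41 to 84 in the MSEW libraries. Control libraries 1 and 3 and MSEW library 2, which had the highest Adrb1 level, had fewer genes detected (18091, 15344 and 18400) than the other 3 adipocyte libraries (20439 to 20964). Without MSEW library 2 the log2 fold change was 1.45. Without the 2 control libraries, a removal that was not planned, it was 1.41. This value sets 1 control library against 3 and takes its spread from the MSEW libraries.

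The other 7 genes overlapped between the treatments in adipocytes. The share of all genes that, like Adrb1, did not overlap is not given. The 95% interval of the fold of MSEW over control was 0.716 to 1.97 for Slc22a3, 0.632 to 1.8 for Adra1a, 0.865 to 2.84 for Maoa and 0.469 to 1.7 for Maob. It was 0.4 to 2.8 for Adrb3, and wider still for Adra2a (0.125 to 9.74) and Slc6a2 (0.191 to 13.5), which had few counts. A p that misses the threshold does not show that the treatments act alike on these genes.

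The difference in the MSEW effect between fractions was tested as an interaction over the 13 high-fat samples. edgeR called 0% of the 17948 genes tested, and 873 had an unadjusted p under 0.05, while DESeq2 called 3 and limma none. Among the 8 genes Adrb1 and Maoa had an unadjusted p under 0.05. The MSEW effect on Adrb1 was larger in adipocytes by log2 2.46 (SE 0.96) and that on Maoa by log2 0.85 (SE 0.38), both with an edgeR adjusted p of 0.934. DESeq2 gave adjusted p of 0.577 and 0.817 for them.

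The effect of diet could be read in preadipocytes only, from 1 control and 1 MSEW library on the low-fat diet, with the early life treatment as a covariate. Slc6a2 was 6.43 FPKM in the control and 8.48 FPKM in the MSEW low-fat library, above all 8 high-fat libraries, which reached 2.5 FPKM. It was 4.49-fold lower on the high-fat diet (log2 -2.17, SE 0.26; 95% interval 0.148 to 0.335 of the low-fat level). edgeR gave an adjusted p of 0.204 and called 0% of the 18468 genes tested; 2360 had an unadjusted p under 0.05, while DESeq2 called 422 and limma on log2(FPKM + 1) called none.

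The Slc6a2 call turned on the tool and the filter. DESeq2 gave an adjusted p of 1.80e-07, in a comparison where it called 0.78% of genes as lower on the high-fat diet. edgeR with no filter on low counts gave 0.0125, and Slc6a2 was then the only gene called of 33579, so that 0.00298% of genes were called as lower. limma on log2(FPKM + 1) gave 0.295. Beside it, the low-fat libraries had summed neuron markers of 30.2 and 27.1 FPKM, progenitor markers of 3280 and 2940 FPKM and macrophage markers of 182 and 238 FPKM, all within the range of the high-fat preadipocyte libraries. Single markers and medians did differ. Pdgfra, a receptor gene of adipocyte progenitors, was 122 and 105 FPKM in the low-fat libraries, above the 36.9 to 81.7 FPKM of all 8 high-fat libraries, as Slc6a2 was. The median log2 fold change of high-fat over low-fat was -0.43 over the 8 progenitor markers and 1.11 over the 8 macrophage markers, none of which was called by edgeR. The part of these cells in the difference was not tested.

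Maob was the other gene with an unadjusted p under 0.05 for diet. It was 13.4 and 11.5 FPKM in the low-fat libraries and at most 10.4 FPKM in the high-fat ones, a log2 fold change of -0.80 (SE 0.25; edgeR adjusted p = 0.32; DESeq2 adjusted p = 0.122). Maoa did not follow it, at 8.27 and 7.55 FPKM on the low-fat diet and a 95% interval of the fold of high-fat over low-fat of 0.867 to 1.23. Maoa held 38.1% and 39.6% of the summed oxidase level in the low-fat samples, below the 42.8% to 62.1% of the high-fat samples. Adra2a was lower in both low-fat libraries (0.565 and 0.67 FPKM) than in every high-fat sample once the near-identical libraries were averaged, with a log2 fold change of 0.68 (SE 0.43; edgeR adjusted p = 0.513). For the other 4 genes the low-fat values lay within the high-fat range. The share of all genes with both low-fat values outside that range is not given.

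Between the 2 low-fat libraries there is no replicate, so the MSEW and control values are given with 95% intervals that cover counting error only. The ratio of MSEW to control was 1.32 (1.21 to 1.44) for Slc6a2, 0.857 (0.775 to 0.948) for Maob and 2.67 (1.55 to 4.77) for Adrb3, none of which includes 1. It was 0.913 (0.823 to 1.01) for Maoa, 1.19 (0.793 to 1.77) for Adra2a, 0.856 (0.551 to 1.32) for Adra1a, 0.698 (0.311 to 1.5) for Adrb1 and 2.33 (0.808 to 7.55) for Slc22a3. The summed adipocyte markers were 51.6 FPKM in the MSEW and 28.2 FPKM in the control low-fat library, and moved in the same direction as Adrb3.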

How the data were processed

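Bulk RNA libraries were sequenced in read pairs, per the labels' protocols. For 54532 genes the authors deposited read counts (not normalized) and FPKM. The submitters' processing notes name STAR 2.6.1d, DESeq2 1.20.0, edgeR 3.24.3 and the builds mm10 and GRCm38. No counting program, strand setting or annotation release is named there. In each library the deposited FPKM equal counts per length and total times 1 factor (0.8595 to 1.255), so they were scaled between libraries.

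The 8 genes and all gene lists were chosen with earlier results of these data known. Control high-fat preadipocyte libraries 1 and 3 were summed (FPKM averaged), since their coefficient of variation was under 0.1. Counts of all genes were tested with edgeR 4.0.16 in R 4.3.3 (TMM, filterByExpr, robust quasi-likelihood fit), at a Benjamini-Hochberg adjusted p under 0.05. Early life treatment was a covariate for fraction and diet, and the effects of treatment were fitted within each fraction. Since all 8 genes passed the filter in all 5 fits, the permutation test planned for a gene below it was not needed. Alternatives were DESeq2 1.42.0, limma 3.58.1 on log2(FPKM + 1) or log2(FPKM + 0.1), other size factors and filters, subsets of libraries, and the replicate number as a block. The fits were also run on simulated counts with large planted changes in well expressed genes. The outcome is not given here, and that setting does not test them for genes as low as Adrb1. Correlations were computed with scipy 1.17.1. Of each other pathway list, the text names the 2 genes with the largest absolute change among those called between fractions and any called by edgeR elsewhere. The names, coordinates and strands of the 8 genes are as in the authors' table, of which 6 have the coordinates of GENCODE M21; Adrb1 and Adra2a do not. A limit of 3 counts was used for a count of 0, and intervals at 95% and such limits cover counting error only, apart from those of fold changes. Promoter sequences are from RefSeq. A gene of the pathway lists and a gene of the marker lists are not reported here.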

Additional observations from a re-analysis of the deposited data

Results flagged for a closer look

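Slc6a2 in MSEW high-fat preadipocyte library 2, at 2.34 FPKM, lay apart from the other 3 libraries of its group (1.16 to 1.28 FPKM). The gap was 0.896 of the group's range, above Dixon's 95% critical value for 4 samples. MSEW high-fat preadipocytes were the only group of 4 samples, so 8 genes in 1 group were looked at, and chance marks about 1 group in 20. The same library had the highest Adra2a, Maob and progenitor marker levels of the group, and the least macrophage marker RNA (163 FPKM).

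The MSEW effect on Adrb1 was higher in adipocytes than in preadipocytes by log2 2.46. Every MSEW adipocyte sample lay above the control mean of 0.442 FPKM, and every MSEW preadipocyte sample lay below the control mean of 0.445 FPKM. That pattern is the rule by which the gene was flagged, so it is no separate support. The share of all genes that meet it is not given. MSEW preadipocyte library 4 met it narrowly, at 0.437 FPKM on 24 counts. The test of the difference itself, edgeR's interaction term, did not pass the threshold (adjusted p = 0.934, and 0.333 to 1 over its alternatives). The counts behind it are low, at 6 to 84 per library.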

How the results depend on the processing

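Over 26 alternatives the number of the 8 genes called between fractions stayed between 6 and 8, against 7 in the reported fit. Adrb3, Slc22a3, Adra1a, Maoa, Maob and Slc6a2 kept their direction and call in all 26; Adra2a lost its call in the control libraries alone, and Adrb1 gained one in 9. For diet, 1 of the 8 genes was called, Slc6a2, under DESeq2 (1, lower) and with no filter on low counts (1, lower), against 0 in the reported fit; the cause was not tested. In the other 3 comparisons the count was 0 under every alternative run, and no called value changed sign. DESeq2 called 422 genes for diet and 4, 9 and 3 in the comparisons of MSEW, where edgeR called 0. With no filter edgeR called 51 genes for MSEW in adipocytes, none of them among the 8.

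Same-numbered libraries were checked for pairing by the correlation of their deviations from the group means. Between control and MSEW preadipocytes it was 0.161, 0.329 and 0.179 for numbers 1, 2 and 4 and -0.068 for number 3, whose control library is nearly the same as library 1. With those libraries as 1 sample it was 0.232, 0.426 and 0.275, though control 4 went best with MSEW 3 (0.3), so pairing in preadipocytes is not settled. In the other groups it was -0.248 to 0.136, which shows no pairing but, as a value over all genes in small groups, cannot exclude it. Control numbers 1 and 3 had high sums of 4 urothelial markers in both high-fat fractions. These were 255 and 257 FPKM in preadipocytes and 88.1 and 42.8 FPKM in adipocytes, against 25.3 and 1.53 FPKM for number 2. Whether same-numbered fractions share an animal is not settled. The replicate block also keeps libraries 1 and 3 apart and lets more genes pass the filter (20809 between fractions, against 16938 without the block). With it edgeR called 7 of the 8 genes and 10664 genes in all between fractions, against 10752 with the libraries apart and no block. For MSEW in preadipocytes and for diet it called 2 genes each, against 0. The comparisons by diet rest on 2 low-fat libraries. Adra2a and Slc6a2 in adipocytes, Adra1a and Slc22a3 in preadipocytes and Adrb1 throughout rest on under 100 counts per library. Both limit what could be detected.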
